A study of Arabidopsis thaliana with 36 samples.

Results

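The 36 genes described here encode the enzymes and cofactors that place, maintain, read and remove methylated cytosine in Arabidopsis thaliana. They were chosen by identifier from the 33557 genes of the deposited table, by known function, at a time when earlier results of these data were known. All 36 passed the filter on low values, which 20411 genes passed in all. Their levels were compared in roots of the wild type (WT) and of the otu5 mutant, harvested 14 days after germination from plates of control medium or of medium low in phosphate (low Pi). OTU5 encodes a deubiquitinating enzyme, which removes ubiquitin from proteins, and the study asked how it bears on root development and on the root's programme under Pi starvation. The 4 groups were WT control, WT low Pi, otu5 control and otu5 low Pi, with 3 libraries each. The labels name the mutant only as otu5, with no allele, and name no ecotype for either genotype. Nothing in them ties the replicates to separate plants or plates. The p-values here therefore measure the spread between these libraries only, and that spread may be technical.

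In plants, cytosine is methylated in 3 sequence contexts, CG, CHG and CHH, where H is any base but G. Methylation in CG is copied at replication by MET1 with its VIM partners, and methylation in the other contexts is kept by chromomethylases that read methylated histone H3 lysine 9 (H3K9). RNA-directed DNA methylation (RdDM) uses small interfering RNAs (siRNAs), made by the plant-specific RNA polymerase Pol IV and its partners, to guide the methyltransferase DRM2 to loci transcribed by Pol V. Glycosylases of the ROS1 and DME family cut methylated cytosine out again. The machinery silences transposons in roots as in other tissues.

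The unit is RPKM, by name the reads on a gene divided by its length and by the number of reads mapped in the library. The deposited values were already level between libraries by the median-ratio measure, with size factors between 1.000 and 1.002. Library sums lay between 993382 and 1330830 RPKM, and replicates correlated at r between 0.969 and 0.983 over the genes tested. Read counts are not in the table, so absolute depth is unknown. Relative depth, taken from ratios of very low values, ran from 0.671 to 1. OTU5 itself stood at 40.9 RPKM in WT and 1.36 RPKM in otu5 on control medium, and at 39.9 and 0.811 RPKM in low Pi, which fits the genotype labels. The culture condition label contradicts the title in 6 of the 12 libraries, namely all 3 of WT low Pi, which it calls high Pi, and all 3 of otu5 control, which it calls low Pi. That label thus follows genotype, and groups were taken from titles and source names. As a check added after the data were seen, 8 well-known Pi starvation markers (SPX1, SPX3, MGD3, PHT1;4, IPS1, SQD2, PAP17 and PS2) were looked up, and all 8 were called higher by limma in the libraries titled low Pi, in each genotype. Their summed level lay between 75.4 and 82.7 RPKM in WT control, 374 and 837 in WT low Pi, 84.2 and 98.6 in otu5 control, and 416 and 692 in otu5 low Pi, which fits the titles and not the culture condition label. The tissue label names root, while the text on RNA isolation names rosette leaves. All 9 markers of root endodermis and suberin were detected in every library, with sums between 292 and 424 RPKM, and all 9 markers of green shoot tissue were also detected in every library. Shoot marker sums lay between 1079 and 1328 RPKM in WT control, 830 and 1061 in WT low Pi, 1463 and 1578 in otu5 control, and 1065 and 1087 in otu5 low Pi. In bulk roots, fewer cells of a type and less RNA per cell cannot be told apart.

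Genes of every arm of the pathway were transcribed in these roots, at modest levels. The mean over the 12 libraries ranged from 1.09 RPKM for VIM2 (AT1G66050) to 33.5 RPKM for RDM1 (AT3G22680), with a median of 9.93 RPKM over the 36 genes against 15.6 RPKM over all genes tested. The highest levels belonged to 2 RdDM effectors, RDM1 at 33.5 RPKM and IDN2 (AT3G48670), a protein that binds double-stranded RNA, at 31.8 RPKM. VIM1 (AT1G57820) followed at 23.1 RPKM and the siRNA-binding Argonaute AGO4 (AT2G27040) at 20.3 RPKM. At the low end stood AGO6 (AT2G32940), a second Argonaute of the pathway, at 1.25 RPKM, the glycosylase DML3 (AT4G34060) at 1.81 RPKM, and the largest subunits of Pol IV (NRPD1, AT1G63020, 2.78 RPKM) and Pol V (NRPE1, AT2G40030, 2.92 RPKM). NRPD2A (AT3G23780), the second-largest subunit that Pol IV and Pol V share, averaged 13.6 RPKM.

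These genes varied little between groups. The highest group mean divided by the lowest had a median of 1.15 over the 36 genes, against 1.21 over all genes tested. It was largest for DML3, at 1.74, followed by NRPD1 at 1.50, and both VIM2 and NRPD2A were at 1.38. It was smallest for CMT3 (AT1G69770) and MOM1, both at 1.04. The SD between replicates on the log2 scale had a median of 0.083 over the 36 genes and 0.116 over all genes tested.

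**Figure D1:**
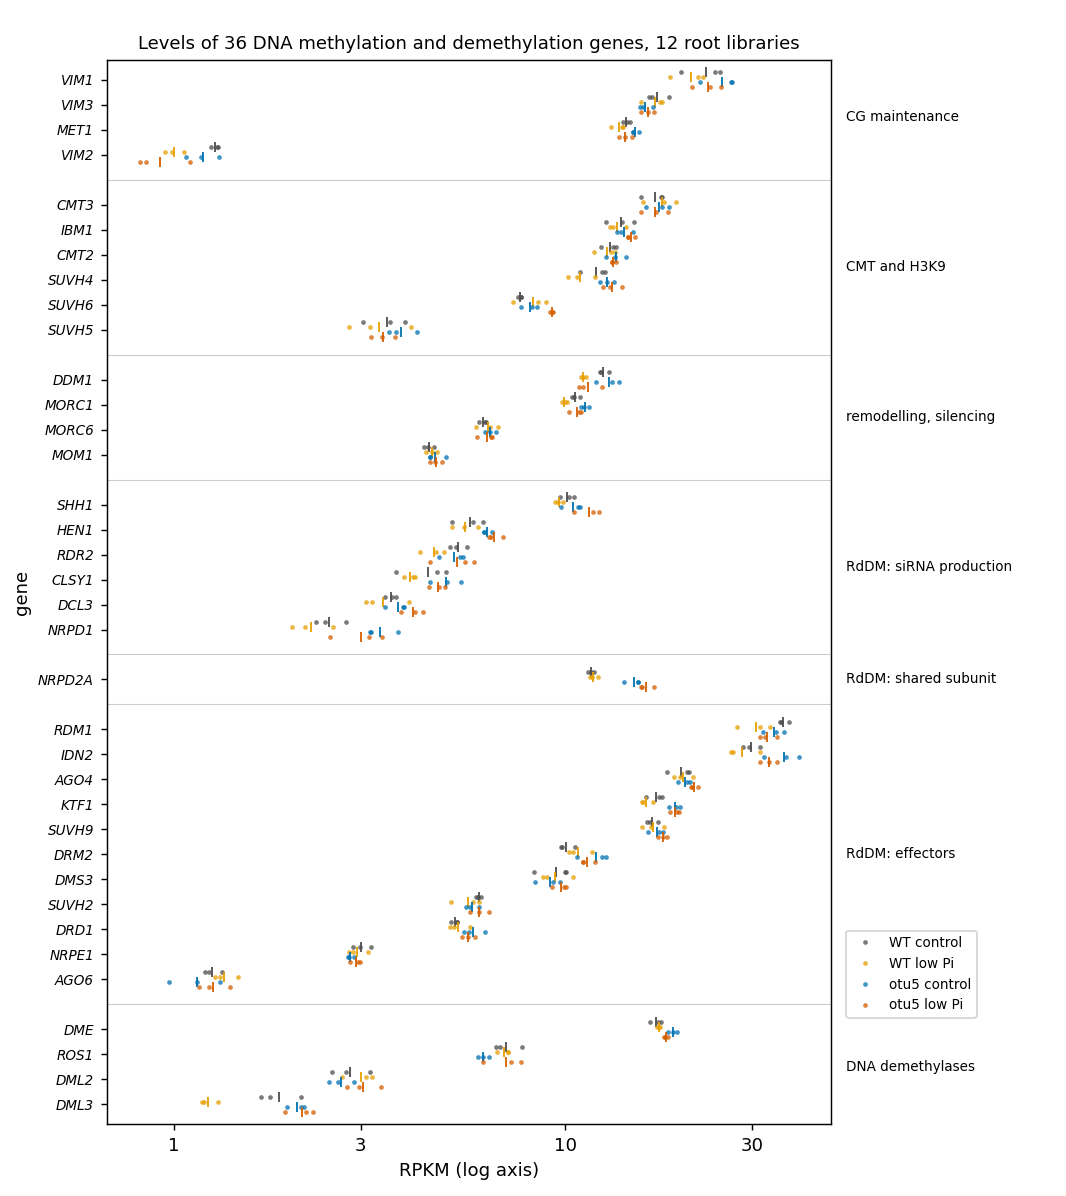
Level of each of the 36 genes in RPKM on a log axis, with 1 point per library, a tick at each mean of 3 libraries, and genes grouped by role. Levels run from about 1 RPKM (VIM2, AGO6) to above 30 RPKM (RDM1, IDN2), and the 4 groups lie close together for most genes, with NRPD2A and DML3 as visible exceptions.

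Differences were tested with limma on log2(RPKM + 0.5), in a fit of the 4 group means over all genes tested. A gene was called at an adjusted p under 0.05, with Benjamini-Hochberg adjustment over the 20411 genes. Differences below are on this log2 scale, on which low genes appear to change less than they do, and are given with their standard error (SE) or their 95% interval. Folds given with them, and the 1.5-fold bound for intervals, are in RPKM + 0.5. For genes near 1 RPKM, such as VIM2, that bound is looser in RPKM.

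The clearest difference was in NRPD2A, the shared Pol IV and Pol V subunit, which was higher in otu5 on both media. NRPD2A stood at 11.8, 11.4 and 11.7 RPKM in WT control, 11.7, 11.6 and 12.1 in WT low Pi, 14.1, 15.4 and 15.3 in otu5 control, and 16.9, 15.6 and 15.7 in otu5 low Pi. Every otu5 library lay above every WT library. In limma the difference between otu5 and WT was 0.35 (SE 0.05, adjusted p = 0.0044) on control medium, a fold of 1.27. In low Pi the limma difference was 0.43 (SE 0.05, adjusted p = 0.0016), a fold of 1.35. Exact two-sided permutation tests gave p = 0.1 on either medium, the smallest that 3 against 3 libraries can give. NRPD2B, a similar copy of NRPD2A elsewhere in the genome that was looked up after these values were seen, lay between 2.11 and 3.35 RPKM in the 12 libraries. Its differences between otu5 and WT were -0.00 and 0.03, and neither passed. The sources used here do not give how reads were divided between the copies.

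On control medium, NRPD2A was the only one of the 36 genes that limma called different between otu5 and WT, and 10.4% of all genes tested were called. By direction, 1 of the 36 was called higher, where 4.85% of all genes were, and 0 were called lower, where 5.52% were. At an unadjusted p under 0.05 there were 6 genes in limma, all higher in otu5, namely NRPD2A, NRPD1, IDN2, DRM2, KTF1 and DME, and 26.5% of all genes tested reached it in either direction. The median difference was 0.05 over the 36 genes and 0.00 over all genes tested, and 26 of the 36 were positive, where 50.9% of all genes were. Library values did not overlap for 10 genes that were higher in otu5, where 15.9% of all genes tested had that pattern, and for 1 that was lower, ROS1, where 17.2% had it. On the scale tested, the 95% interval lay within 1.5-fold in either direction for 35 of the 36 genes.

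In low Pi, 4 of the 36 genes passed between otu5 and WT, and all 4 were higher in otu5. These were NRPD2A and the following 3: KTF1, an elongation-factor-like protein that binds AGO4 at Pol V transcripts, SHH1, which binds methylated H3K9 and brings in Pol IV, and the glycosylase DML3. Over all genes tested, 9.91% were called in this comparison, 4.00% higher and 5.91% lower. The median difference was 0.09 over the 36 genes and 0.01 over all, and 30 of the 36 were positive, where 51.2% of all genes were. Values did not overlap between genotypes for 11 genes, all higher in otu5, against 14.6% of all genes tested for that direction and 14.5% for the other. Of the 36 genes, 9 reached an unadjusted p under 0.05 in limma, a share close to the 26.2% of all genes tested that did.

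Markers of other cell types also differed between otu5 and WT. The 9 shoot markers had a median difference of 0.30 on control medium, with 3 called higher, and 0.28 in low Pi, with 2 called higher. The 9 markers of root endodermis and suberin had medians of -0.20 and -0.29, with 1 called lower on each medium, CASP5 on control medium and CASP1 in low Pi, both of which build the Casparian strip. Of the 10 S phase markers, whose medians were -0.07 and -0.03, limma called PCNA1 and PCNA2, the replication clamp, and TSO2, a ribonucleotide reductase subunit, lower in otu5 on both media, and RNR1, another subunit of that enzyme, higher on control medium. Over all genes tested, limma called 4.85% higher and 5.52% lower on control medium, and 4.00% and 5.91% in low Pi. The part of these cell types in the differences of the 36 genes was not tested.

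KTF1 (AT5G04290) stood at 17.7, 16.1 and 17.4 RPKM in WT control, 15.7, 15.8 and 16.8 in WT low Pi, 19.6, 19.1 and 18.5 in otu5 control, and 18.5, 19.3 and 19.5 in otu5 low Pi. All 6 otu5 libraries lay above all 6 WT libraries. The limma difference in low Pi was 0.24 (SE 0.05, adjusted p = 0.018), a fold of 1.18, and on control medium it was 0.16 (SE 0.05, adjusted p = 0.080), which did not pass. Without WT low Pi replicate 1 or replicate 2, the adjusted p in low Pi was 0.072 and 0.064, and in a limma fit of the 2 low Pi groups alone it was 0.073.

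SHH1 (AT1G15215) stood at 10.2, 10.5 and 9.68 RPKM in WT control, 9.85, 9.43 and 9.59 in WT low Pi, 9.75, 10.9 and 10.8 in otu5 control, and 12.2, 11.8 and 10.5 in otu5 low Pi. The genotypes overlapped on control medium and did not overlap in low Pi. The limma difference was 0.24 in low Pi (SE 0.07, adjusted p = 0.049), close to the threshold, and 0.04 on control medium (adjusted p = 0.73). The call was kept in 7 of 16 alternatives, over which the adjusted p in low Pi ranged from 0.0081 to 0.17. Leaving out a library ended it for 5 of the 6 libraries compared, with adjusted p of 0.10, 0.13 and 0.087 without WT low Pi replicates 1, 2 and 3, and 0.17 and 0.11 without otu5 low Pi replicates 1 and 2. The SHH1 locus overlaps that of CCMH by 23 bp, and the sources used here do not give whether counting used strand.

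**Figure D2:**
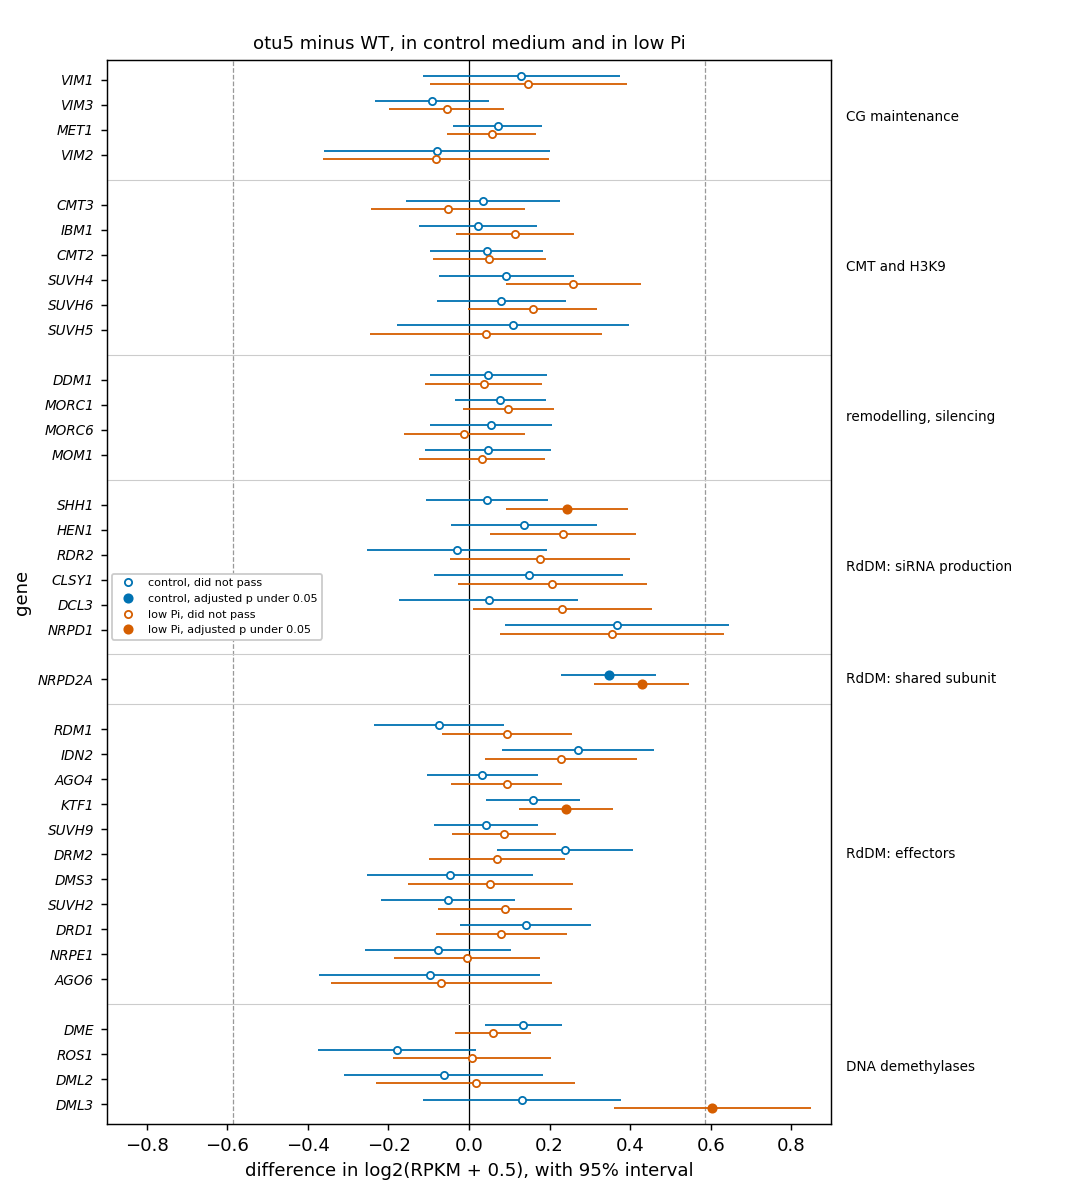
Difference between otu5 and WT in log2(RPKM + 0.5) for each gene, with its 95% interval, on control medium and in low Pi, where filled points have a limma adjusted p under 0.05 and dashed lines mark 1.5-fold on that scale. Filled points are NRPD2A (0.35 and 0.43) on both media and SHH1 (0.24), KTF1 (0.24) and DML3 (0.60) in low Pi, all to the right of 0.

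The other genes of siRNA production lay on the same side in low Pi but did not pass. NRPD1, the catalytic Pol IV subunit, stood at 2.31, 2.75 and 2.43 RPKM in WT control, 2.01, 2.16 and 2.54 in WT low Pi, 3.19, 3.73 and 3.16 in otu5 control, and 3.14, 2.49 and 3.39 in otu5 low Pi. The genotypes did not overlap on control medium, and in low Pi the lowest otu5 library lay just under the highest WT library. Its limma difference was 0.37 on control medium (95% interval 0.09 to 0.65, adjusted p = 0.091) and 0.36 in low Pi (0.08 to 0.63, adjusted p = 0.10). HEN1 (AT4G20910), which methylates the ends of small RNAs, had group means of 5.70 ± 0.534, 5.54 ± 0.412, 6.30 ± 0.180 and 6.59 ± 0.312 RPKM (SD, n = 3) in WT control, WT low Pi, otu5 control and otu5 low Pi. RDR2 (AT4G11130), the polymerase that makes Pol IV transcripts double-stranded, had means of 5.32 ± 0.277, 4.61 ± 0.324, 5.201 ± 0.386 and 5.29 ± 0.696 RPKM in the same order. DCL3 (AT3G43920), which cuts the double strands into siRNAs, had means between 3.42 and 4.09 RPKM, and CLSY1 (AT3G42670), a remodelling factor of Pol IV, between 4.02 and 4.96 RPKM. Over these 6 genes, SHH1 included, all 6 differences between otu5 and WT were positive in low Pi, with a median of 0.23, and 1 of the 6 passed. Of all genes tested, 51.2% were positive there and 4.00% were called higher. The sign was not particular to siRNA production, since 30 of the 36 genes were positive in low Pi, all 4 glycosylases among them. On control medium 5 of the 6 were positive, RDR2 being the exception, with a median of 0.09, where 50.9% of all genes were positive. There 0 of the 6 passed in limma, where 4.85% of all genes were called higher. An unadjusted p under 0.05 in limma was reached by 1 (NRPD1), where 26.5% of all genes reached it.

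Summed over these 6 genes, the level was 31.7 ± 0.703 RPKM in WT control, 29.4 ± 0.503 in WT low Pi, 34.02 ± 1.45 in otu5 control and 35.2 ± 1.33 in otu5 low Pi (SD, n = 3). The WT libraries lay between 29.1 and 32.3 RPKM and the otu5 libraries between 32.6 and 35.97 RPKM, with no overlap. In low Pi the sums of the RdDM effectors also did not overlap between genotypes (WT 144 to 154, otu5 157 to 164 RPKM). Nor did those of the glycosylases (28.1 to 29.0 and 29.4 to 31.0 RPKM). The same held for all 36 genes (356 to 381 and 388 to 412 RPKM). On control medium those sums overlapped. There the sum of DDM1, MORC1, MORC6 and MOM1 did not (WT 33.7 to 33.8, otu5 33.9 to 36.2 RPKM). The CG and chromomethylase groups overlapped on both media. Such sums weigh most on the genes with the highest levels, so they do not show that every gene of a group moved. How often sums of other genes separate the genotypes was not tested. Over all 18 RdDM genes, 16 differences were positive in low Pi, with a median of 0.14 and 3 passing, where 51.2% of all genes were positive and 4.00% were called higher. On control medium 12 of the 18 were positive, with a median of 0.05 and 1 passing, where 50.9% of all genes were positive and 4.85% were called higher, so that the count called was near the background.

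**Figure D3:**
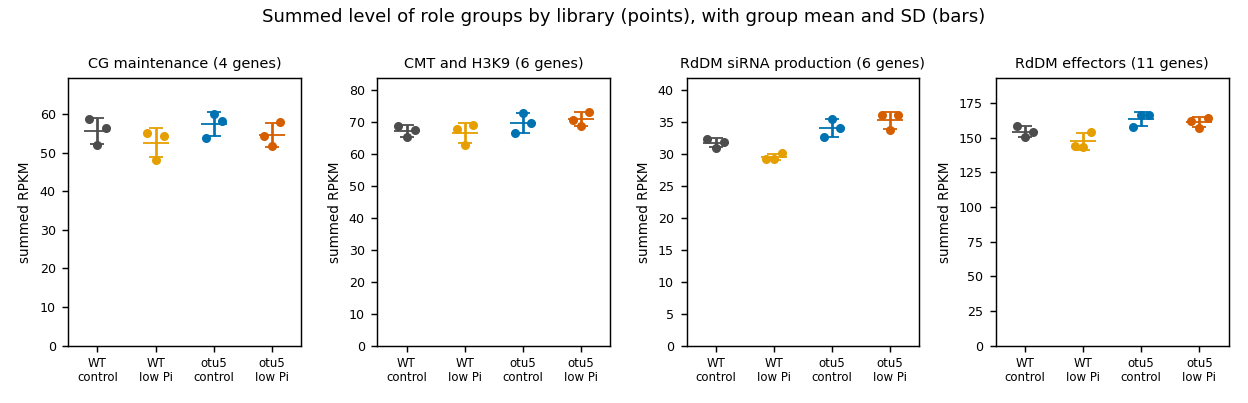
Summed RPKM of 4 role groups, with 1 point per library and bars for the mean and SD of 3 libraries, each axis starting at 0. For siRNA production the otu5 libraries (32.6 to 35.97 RPKM) lie above the WT libraries (29.1 to 32.3 RPKM), while for CG maintenance the group means lie between 52.5 and 57.4 RPKM and the libraries overlap. For RdDM effectors the genotypes overlap on control medium and not in low Pi (WT 144 to 154, otu5 157 to 164 RPKM).

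Among the 11 RdDM effectors, KTF1 alone passed, in low Pi, where limma called 4.00% of all genes tested higher in otu5. IDN2 stood at 31.4, 28.5 and 29.5 RPKM in WT control, 26.8, 26.6 and 31.5 in WT low Pi, 32.2, 39.5 and 36.8 in otu5 control, and 33.3, 31.4 and 34.8 in otu5 low Pi. The otu5 libraries were higher on control medium without overlap and overlapped slightly in low Pi. The IDN2 difference was 0.27 on control medium (95% interval 0.08 to 0.46, limma adjusted p = 0.070) and 0.23 in low Pi (0.04 to 0.42, limma adjusted p = 0.12).

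DRM2 (AT5G14620), the methyltransferase that RdDM guides, stood at 10.6, 9.74 and 9.82 RPKM in WT control, 10.5, 10.2 and 11.7 in WT low Pi, 10.7, 12.7 and 12.4 in otu5 control, and 11.1, 11.1 and 11.9 in otu5 low Pi. On control medium every otu5 library lay above every WT library, the closest pair being 10.6 and 10.7 RPKM. The limma difference for DRM2 was 0.24 on control medium (95% interval 0.07 to 0.41, adjusted p = 0.073) and 0.07 in low Pi (-0.10 to 0.24, adjusted p = 0.61). Without otu5 control replicate 1, both DRM2 and IDN2 passed on control medium, bringing the count of called genes there from 1 to 3.

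RDM1, part of the complex with DRD1 and DMS3 that recruits Pol V, stood at 35.6, 37.3 and 35.3 RPKM in WT control, 27.5, 31.5 and 33.4 in WT low Pi, 34.5, 32.0 and 36.2 in otu5 control, and 34.7, 31.5 and 32.3 in otu5 low Pi. Within WT the low Pi libraries were lower without overlap, and the otu5 libraries overlapped with both. Its difference between low Pi and control in WT was -0.23 (95% interval -0.39 to -0.07, limma adjusted p = 0.11), and the locus overlaps a neighbouring gene by 1899 bp. DRD1 (AT2G16390), a remodelling protein, had group means between 5.22 and 5.81 RPKM, and DMS3 (AT3G49250), a hinge-domain protein, between 9.12 and 9.75 RPKM. The DMS3 locus overlaps a neighbouring gene by 2243 bp. SUVH2 (AT2G33290) and SUVH9 (AT4G13460), which bind methylated DNA and recruit Pol V, had means of 5.64 to 6.03 and 16.6 to 17.8 RPKM. Means of AGO4 ran from 19.8 to 21.3 RPKM, those of AGO6 from 1.140 to 1.34 RPKM and those of NRPE1 from 2.82 to 3.01 RPKM, with no call in any comparison.

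Among the 4 DNA glycosylases DML3 alone passed, in low Pi, where limma called 4.00% of all genes tested higher in otu5. ROS1 (AT2G36490), the main demethylase of vegetative tissue, stood at 6.79, 6.65 and 7.77 RPKM in WT control, 7.13, 6.68 and 7.15 in WT low Pi, 6.40, 5.97 and 6.16 in otu5 control, and 7.26, 6.17 and 7.71 in otu5 low Pi. The otu5 control libraries were the lowest group, without overlap with WT control, but the difference of -0.18 did not pass (95% interval -0.37 to 0.02, limma adjusted p = 0.23). In low Pi the ROS1 difference between genotypes was 0.01 (-0.19 to 0.20, limma adjusted p = 0.97).

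DME (AT5G04560), the glycosylase first known for its role in the female gametophyte, stood at 16.5, 17.6 and 17.2 RPKM in WT control, 17.3, 17.1 and 17.5 in WT low Pi, 19.3, 18.8 and 18.4 in otu5 control, and 18.3, 17.9 and 18.0 in otu5 low Pi. All otu5 libraries lay above all WT libraries. The DME difference was 0.14 on control medium (SE 0.04, limma adjusted p = 0.070) and 0.06 in low Pi (limma adjusted p = 0.41), and neither passed. DML2 (AT3G10010), a close relative of ROS1, had group means between 2.67 and 3.04 RPKM, with no call.

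DML3, the least transcribed of the 4 glycosylases, stood at 1.67, 2.11 and 1.76 RPKM in WT control, 1.29, 1.19 and 1.18 in WT low Pi, 1.95, 2.11 and 2.14 in otu5 control, and 2.17, 1.92 and 2.27 in otu5 low Pi. The WT low Pi libraries stood below the other 9 libraries without overlap. The difference between otu5 and WT in low Pi was 0.60 (95% interval 0.36 to 0.85, limma adjusted p = 0.0090), a fold of 1.52 in RPKM + 0.5. The group means there were 2.12 RPKM in otu5 and 1.22 in WT, a ratio of 1.74. On control medium the difference was 0.13 (-0.11 to 0.38, limma adjusted p = 0.49). In a limma fit of the 2 low Pi groups alone the low Pi difference had an adjusted p of 0.061. Between low Pi and control the DML3 difference was -0.45 in WT (-0.69 to -0.20, limma adjusted p = 0.0502), just above the threshold, and 0.03 in otu5 (-0.22 to 0.27, limma adjusted p = 0.91). The genotype dependence of the low Pi response, tested as an interaction, was 0.47 for DML3 (0.13 to 0.82, limma adjusted p = 0.77) and did not pass.

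**Figure D4:**
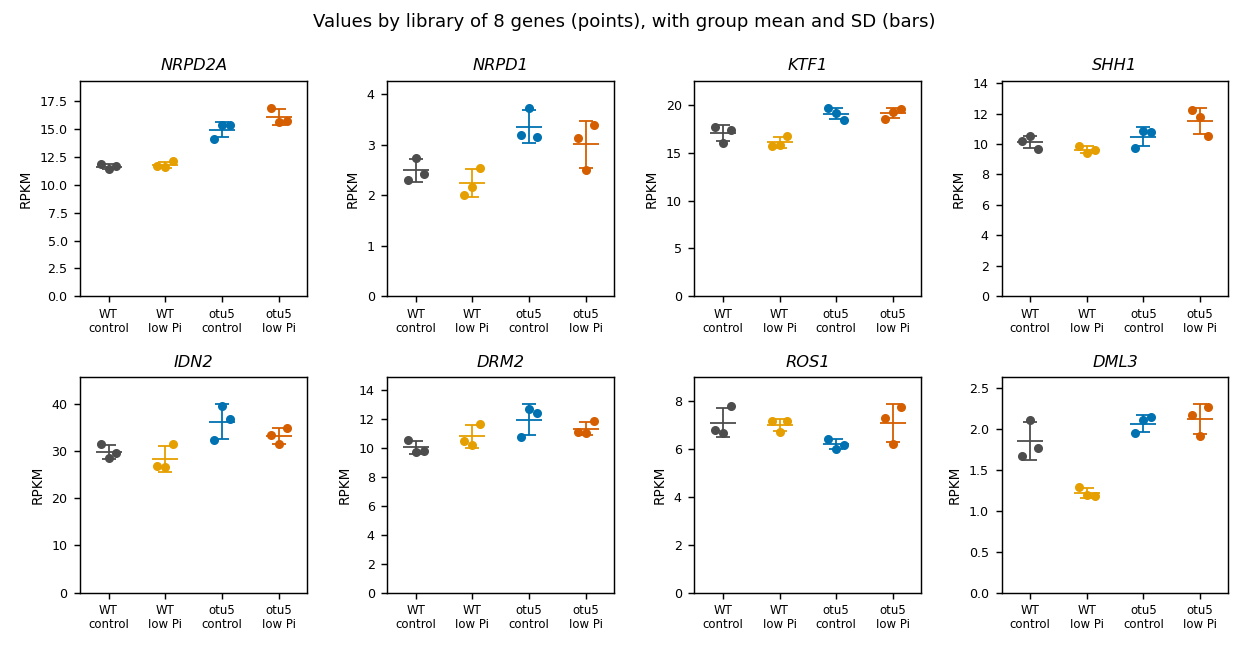
RPKM of 8 genes, with 1 point per library and bars for the mean and SD of 3 libraries, each axis starting at 0. NRPD2A and KTF1 are higher in all 6 otu5 libraries than in all 6 WT libraries, and DML3 is lowest in the 3 WT low Pi libraries (1.18 to 1.29 RPKM).

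Low Pi itself called 0 of the 36 genes in WT and 0 in otu5, where limma called 4.29% and 8.59% of all genes tested. At an unadjusted p under 0.05 limma had 3 genes in WT (DML3, RDM1 and DDM1, all lower in low Pi) and 2 in otu5 (DDM1, lower, and SUVH6, higher), where 20.0% and 24.7% of all genes tested reached it. The median difference was -0.04 in WT and 0.01 in otu5, against -0.01 over all genes tested in either genotype. On the scale tested, the 95% interval lay within 1.5-fold for 35 of the 36 genes in WT and for all 36 in otu5. In WT, library values did not overlap for 6 genes that were lower in low Pi (DDM1, VIM2, RDR2, RDM1, MORC1 and DML3), where 12.5% of all genes tested had that pattern, and for 0 that were higher, where 12.8% had it. In otu5 there were 3 without overlap that were higher (SUVH6, NRPD2A and AGO4) and 2 that were lower (MET1 and DME), against 14.1% and 14.3% of all genes. No gene of the 36 was without overlap in the same direction in both genotypes, where 11.4% of all genes tested were. Same-numbered WT libraries deviated together, and a fit of the 6 WT libraries with the replicate number as a block, chosen after seeing the data, called 1696 genes in place of 875 and still 0 of the 36.

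**Figure D5:**
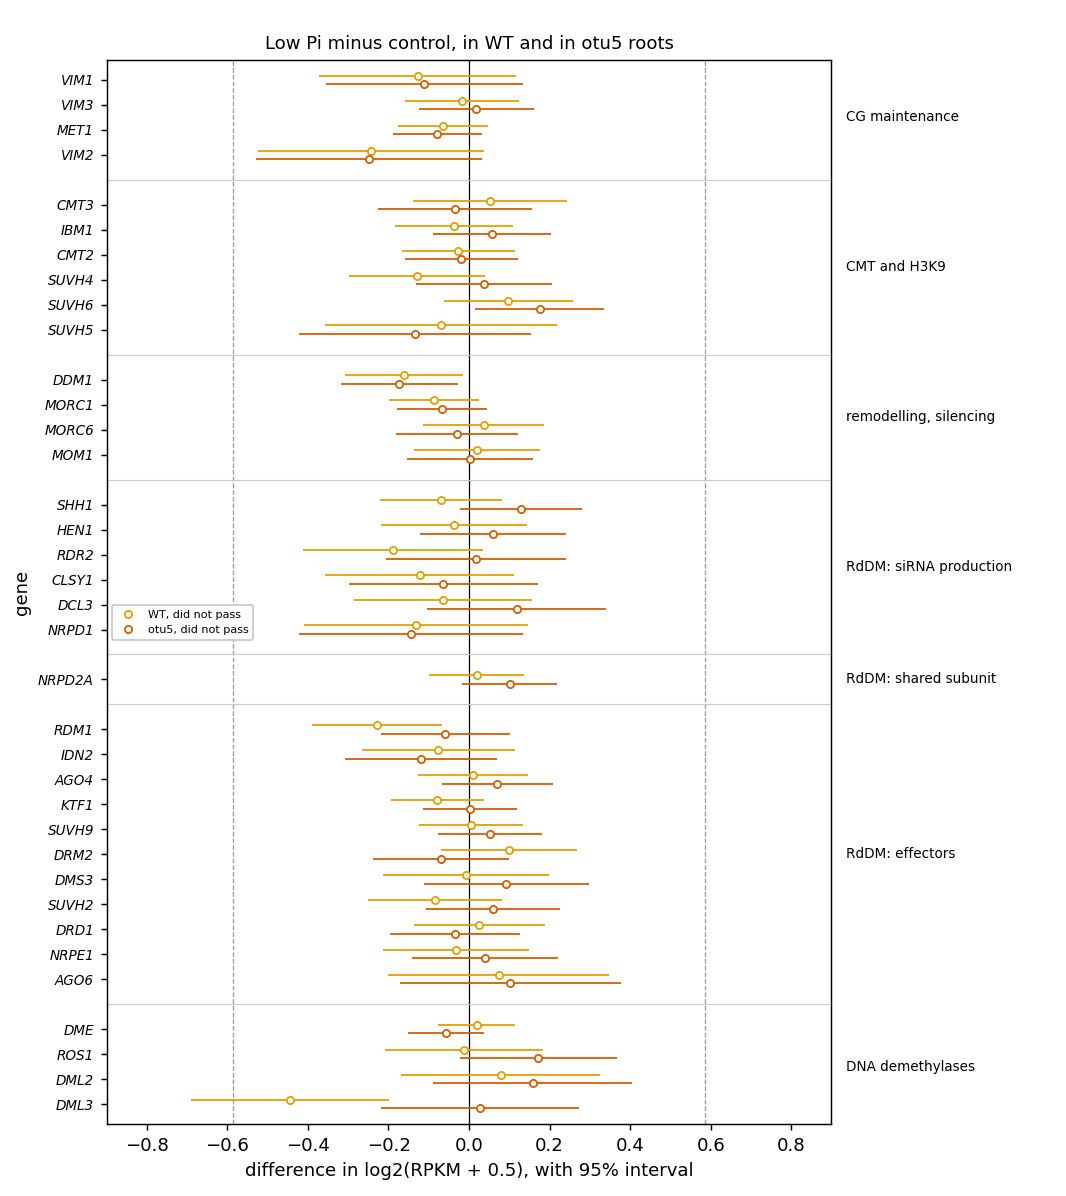
Difference between low Pi and control in log2(RPKM + 0.5) for each gene, with its 95% interval, in WT and in otu5, where open points did not pass in limma and dashed lines mark 1.5-fold on that scale. No gene passed, and the interval that reaches beyond 1.5-fold is that of DML3 in WT (-0.69 to -0.20).

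None of the 4 CG maintenance genes passed in any comparison. In the pairwise comparisons limma called between 4.29% and 10.4% of all genes tested, so 0 of 4 was near the background. MET1 (AT5G49160) stood at 14.0, 14.3 and 14.6 RPKM in WT control, 13.9, 13.1 and 14.1 in WT low Pi, 14.9, 15.5 and 14.9 in otu5 control, and 13.7, 14.2 and 14.8 in otu5 low Pi. Its 4 pairwise differences were -0.06 and -0.08 for low Pi in WT and otu5, and 0.07 and 0.06 for otu5 on control medium and in low Pi. The 95% interval that reached farthest from 0 ran from -0.19 to 0.03, and none passed in limma. The VIM proteins bind hemimethylated DNA and help MET1 to act. VIM1 had group means of 22.9, 20.9, 25.1 and 23.2 RPKM and VIM3 (AT5G39550) of 17.1, 16.9, 16.0 and 16.2 RPKM, in the order WT control, WT low Pi, otu5 control and otu5 low Pi.

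VIM2 was close to the filter limit, at 1.29, 1.29 and 1.24 RPKM in WT control, 0.947, 0.989 and 1.06 in WT low Pi, 1.07, 1.17 and 1.304 in otu5 control, and 0.815, 0.845 and 1.1004 in otu5 low Pi. The low Pi libraries were lower in both genotypes, without overlap only in WT. The differences for VIM2 were -0.24 in WT (95% interval -0.52 to 0.04, limma adjusted p = 0.32) and -0.25 in otu5 (-0.53 to 0.03, limma adjusted p = 0.26). VIM4, a similar gene of the same family, was listed at 0 to 0.146 RPKM, and reads of such similar genes may have been split either way.

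Among the genes for methylation outside CG, CMT3, the CHG methyltransferase, stood at 17.7, 15.7 and 17.6 RPKM in WT control, 17.9, 15.8 and 19.2 in WT low Pi, 16.1, 18.5 and 17.6 in otu5 control, and 17.0, 15.6 and 18.3 in otu5 low Pi. All 4 groups overlapped, and its pairwise differences lay between -0.05 and 0.05. CMT2 (AT4G19020), which methylates CHH in long transposons, had group means between 12.8 and 13.4 RPKM. IBM1 (AT3G07610), the demethylase that removes H3K9 methylation from gene bodies, stood at 14.99, 13.99 and 12.7 RPKM in WT control, 14.3, 13.3 and 13.0 in WT low Pi, 13.6, 14.9 and 13.9 in otu5 control, and 14.5, 15.05 and 14.5 in otu5 low Pi. Only in low Pi were its otu5 libraries all above its WT libraries, with a difference of 0.12 (95% interval -0.03 to 0.26, limma adjusted p = 0.30).

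The H3K9 methyltransferases SUVH4, SUVH5 and SUVH6 write the mark that the chromomethylases read. SUVH4 (AT5G13960) had group means of 11.98 ± 0.916 and 10.9 ± 0.9002 RPKM in WT control and low Pi and 12.8 ± 0.509 and 13.1 ± 0.720 RPKM in otu5 (SD, n = 3). In low Pi its genotypes did not overlap, and the difference was 0.26 (95% interval 0.09 to 0.43, limma adjusted p = 0.056). SUVH6 (AT2G22740) stood at 7.69, 7.72 and 7.56 RPKM in WT control, 8.50, 8.92 and 7.33 in WT low Pi, 8.22, 7.70 and 8.46 in otu5 control, and 9.31, 9.16 and 9.24 in otu5 low Pi. Low Pi libraries were higher in otu5 without overlap, by 0.18 (0.02 to 0.34, limma adjusted p = 0.17), and in WT replicate 3 lay below all control libraries. The SUVH6 locus overlaps a neighbouring gene by 1496 bp and a long non-coding RNA by 2487 bp. SUVH5 (AT2G35160) had means between 3.33 and 3.81 RPKM.

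DDM1 (AT5G66750), the remodelling ATPase that opens heterochromatin to methyltransferases, stood at 13.0, 12.2 and 12.3 RPKM in WT control, 10.97, 11.1 and 11.3 in WT low Pi, 12.003, 13.8 and 13.1 in otu5 control, and 10.8, 11.1 and 12.4 in otu5 low Pi. Low Pi libraries were lower without overlap in WT and with overlap in otu5. The DDM1 difference was -0.16 in WT (95% interval -0.31 to -0.02, limma adjusted p = 0.20) and -0.17 in otu5 (-0.32 to -0.03, limma adjusted p = 0.13), and neither passed. DDM1 and MET1 are most active in dividing cells. The 10 S phase markers had a median difference between low Pi and control of -0.09 in both genotypes. Of the 10, 0 were positive in WT and 0 in otu5, where 48.4% and 47.2% of all genes tested were. Limma called 0 of the 10 in either genotype, where 4.29% and 8.59% of all genes were called. In each genotype 1 of the 10 had an unadjusted p under 0.05 in limma, where 20.0% and 24.7% of all genes did. S phase marker sums lay between 231 and 246 RPKM in WT control, 212 and 236 in WT low Pi, 210 and 232 in otu5 control, and 193 and 224 in otu5 low Pi, and their part in the DDM1 values was not tested.

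None of the silencing factors that act downstream of methylation passed, where limma called between 4.29% and 10.4% of all genes tested in the pairwise comparisons. MORC1 (AT4G36290), a GHKL ATPase, had group means of 10.6 ± 0.271, 9.95 ± 0.162, 11.2 ± 0.271 and 10.7 ± 0.410 RPKM (SD, n = 3), with otu5 above WT without overlap on either medium and no call. Its relative MORC6 (AT1G19100) had means between 6.17 and 6.43 RPKM, and MOM1 (AT1G08060), which silences largely without altering methylation, between 4.48 and 4.66 RPKM.

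Across both media, the sign of the difference between otu5 and WT was positive on both for 24 of the 36 genes (66.7%, against 38.0% of all genes tested) and negative on both for 4 (11.1%, against 35.9%). Higher in otu5 without overlap on both media were 5 genes, NRPD2A, HEN1, KTF1, MORC1 and DME, and 7.28% of all genes tested had this pattern. Lower on both media without overlap were 0 of the 36, against 8.05% of all genes. The interaction called 0 of the 36 genes and 0.00490% of all genes tested, with 1 of the 36 (DML3) at an unadjusted p under 0.05 in limma, as 5.47% of all genes tested were.

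Beyond the 36 genes, 39 further genes of the same pathways were listed, of which 28 passed the filter on low values. Low Pi called 0 of the 28 in either genotype, where 4.29% of all genes tested were called in WT and 8.59% in otu5. At an unadjusted p under 0.05 in limma there were 3 in WT and 2 in otu5, where 20.0% and 24.7% of all genes were. Between otu5 and WT on control medium 3 were called higher and 1 lower, where 4.85% of all genes tested were called higher and 5.52% lower. In low Pi 2 were called higher and 0 lower, where 4.00% and 5.91% of all genes were. The difference was positive for 21 of the 28 on control medium and 23 in low Pi, where 50.9% and 51.2% of all genes were. On control medium, library values did not overlap for 11 higher in otu5 and 4 lower, where 15.9% and 17.2% of all genes did not. In low Pi these were 5 and 2, where the shares were 14.6% and 14.5%. DCL4, a Dicer of other small RNA pathways, was 10.2 RPKM in otu5 and 8.43 in WT on control medium (difference 0.26, SE 0.06, limma adjusted p = 0.030), and 9.82 and 8.03 in low Pi (0.27, limma adjusted p = 0.024). FDM5, a relative of IDN2, was 38.7 in otu5 and 33.9 RPKM in WT on control medium (0.19, limma adjusted p = 0.039), and 40.2 and 32.6 in low Pi (0.30, limma adjusted p = 0.0061). ROS3, an RNA-binding protein that acts with ROS1, was 22.3 in otu5 and 18.7 RPKM in WT on control medium (0.25, limma adjusted p = 0.040). IDM2, which helps ROS1 to reach its targets, was 1.28 in otu5 and 2.26 RPKM in WT on control medium (-0.65, SE 0.18, limma adjusted p = 0.042). The Pol IV and Pol V subunits NRPD4 (group means 11.6 to 13.5 RPKM) and NRPE5 (20.7 to 23.7 RPKM) were not called in any comparison.

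Of 7 genes listed for the supply of the methyl donor S-adenosylmethionine, all passed the filter. Low Pi called 0 of them in either genotype, where 4.29% of all genes tested were called in WT and 8.59% in otu5. At an unadjusted p under 0.05 in limma there were 0 in WT and 2 in otu5, where 20.0% and 24.7% of all genes were. AT3G12290 was lower in otu5 on control medium, at 105 against 117 RPKM (difference -0.15, limma adjusted p = 0.034), and in low Pi, at 95.3 against 114 RPKM (-0.26, limma adjusted p = 0.0041). SAM2, an S-adenosylmethionine synthetase, was lower in otu5 in low Pi, at 368 against 436 RPKM (-0.24, limma adjusted p = 0.023). That is 1 of 7 called lower on control medium and 2 of 7 in low Pi, where 5.52% and 5.91% of all genes tested were. The other 5, SAM1, MAT3, MAT4, SAHH1 and SAHH2, were not called.

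Genes whose transcription is known to depend on DNA methylation or its removal were low in all 4 groups. Of 8 such genes listed, 0 passed the filter, and their summed level lay between 1.15 and 2.17 RPKM in the 12 libraries. The list mixes genes that are switched on when methylation is lost, such as FWA and SDC, with imprinted genes and with EPF2, which is silenced when ROS1 is lost, so its sum has no single reading. FWA was listed at 0 in 9 libraries and reached at most 0.067 RPKM, and EPF2 was listed at 0 in 10. SDC lay between 0.0985 and 0.358 RPKM, QQS between 0.127 and 1.20 RPKM and MEA between 0.0684 and 1.01 RPKM. PHE1 reached at most 0.254 RPKM and FIS2 at most 0.0839 RPKM. DOGL4, an imprinted gene, stood at 0.810, 1.07 and 0.736 RPKM in WT control, 0.0702, 0.0876 and 0.173 in WT low Pi, 0.704, 0.204 and 0.347 in otu5 control, and 0.168, 0.396 and 0.319 in otu5 low Pi. Its WT libraries were lower in low Pi without overlap, and its otu5 libraries overlapped. At these levels, under the filter, a difference between groups was not tested.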

How the data were processed

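RNA of 12 root libraries was analysed, 3 in each of 4 groups, with 100-bp reads per the labels. The 8 methylation and 16 chromatin samples were not analysed here. The values are the authors' deposited RPKM, used as deposited; per the submitters' processing notes, TAIR10, TopHat2 2.0.4 and Cuffdiff were used. The sources used here do not give how reads were scaled between libraries or shared between genes. Median-ratio size factors lay between 1.000 and 1.002, so the deposited values were already level between libraries by that measure. Gene names come from RefSeq (assembly TAIR10.1), which matched 32810 identifiers (97.8%), all 36 members among them. Its coordinates served only to find overlapping loci and for locus lengths, and 8 of the 36 members overlap another locus.

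The filter kept 20411 genes that reached 1 RPKM in 3 or more of the 12 libraries and left out 13146. Values were transformed to log2(RPKM + 0.5). A fit of 4 group means, with 8 residual degrees of freedom, was made in limma 3.58.1 (R 4.3.3). The empirical Bayes step used the trend and robust options, and Benjamini-Hochberg adjustment ran over the whole set. Python 3.11.15, pandas 2.3.3 and matplotlib 3.10.9 made the tables and plots. The procedure was tested on simulated data. Relative depth is the commonest ratio, within 2%, of values in WT control replicate 1 to those in the library. It used genes under 0.3 RPKM in both, and 24.6% to 28.4% of such genes held it.

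The 36 members and the 9 other lists were chosen with earlier results of these data known, and the Pi starvation markers last, to check the titles. Values in all 12 libraries are given for genes past the threshold in any comparison, for the 3 with the largest difference in each pairwise comparison, and for MET1, CMT3, DRM2, DDM1, ROS1, DME and IBM1. Other pathway genes are named where called, at most 4 per comparison; genes given for other reasons were chosen after their values were seen. Alternatives changed the pseudocount, the filter, the scaling, the moderation, the libraries fitted, the library weights and the replicate block. Deviations from group means correlated between same-numbered WT libraries of control and low Pi at 0.204, 0.259 and 0.114 for replicates 1, 2 and 3. The WT libraries were therefore paired by number in an added alternative. In the other comparisons the correlations ran from -0.152 to 0.204, the highest above that of WT replicate 3. Libraries of different numbers correlated at -0.020 at most between WT control and WT low Pi. Between otu5 and WT in low Pi they reached 0.254, close to the highest same-numbered WT value. The main fit used no block, so its results are unpaired, and the labels do not say that the numbers mark pairs.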

Additional observations from a re-analysis of the deposited data

How the results depend on the processing

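Calls among the 36 genes moved with the setting. NRPD2A was called on both media in all 16 alternatives, with limma adjusted p up to 0.025 on control medium and 0.031 in low Pi. Median-ratio scaling, among the 16, hardly altered the values, with size factors between 1.000 and 1.002, so it was not a separate check. For low Pi in WT the count rose from 0 to 1, DML3, with a pseudocount of 0.1, with no filter on low values, with quantile normalization, without trend and robust estimation, and with estimated library weights. The weights raised the count for low Pi in otu5 from 0 to 8, for otu5 against WT on control medium from 1 to 7, and in low Pi from 4 to 7. Over all 20411 genes tested these counts rose from 1754 to 7631, from 2117 to 6795 and from 2023 to 4382. The rise was thus not particular to the 36 genes. A fit of the 2 groups alone left 1 of the 4 calls in low Pi, NRPD2A. Leaving out each library in turn gave 0 to 0 calls for low Pi in either genotype, 1 to 3 for otu5 against WT on control medium (3 without otu5 control replicate 1), and 2 to 6 in low Pi (2 without WT low Pi replicate 1 or replicate 2, 6 without WT low Pi replicate 3). The interaction gave 0 in every alternative run. With the replicate number as a block in the fit of all 12 libraries the count in low Pi was 3, since SHH1 had an adjusted p of 0.070, and the block changed no other call among the 36 genes.

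No difference of a gene past the threshold changed direction in the alternatives run. Over all genes tested, the count called for low Pi in WT was 875, ranged from 242 to 602 with a library left out, and was 2005 with weights and 1696 with the block in the WT libraries alone. For low Pi in otu5 it was 1754, then 503 to 2494 with a library left out, 855 in the fit of the 2 groups and 7631 with weights. For otu5 against WT it was 2117 on control medium, then 702 to 1613 and 6795 with weights, and in low Pi 2023, then 830 to 2251, 502 in the fit of the 2 groups and 4382 with weights. For the interaction the count was 1, then 0 to 17, with 2 with no filter, 2 without trend and robust estimation, 0 with the block and 147 with weights. Quantile normalization moved the number of positive differences for low Pi from 12 to 5 in WT and from 20 to 17 in otu5, and left it at 26 and 30 for otu5 against WT. The cause of these shifts was not tested. The table gives no read counts, so how far depth limits the values of the lowest genes, VIM2, AGO6 and DML3, is unknown.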
